A study of Mus musculus with 15 samples.

Results

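The regions described here gained an ATAC-seq peak in every activated library of mouse CD4+ T cells and had none in any resting library. Peak lists of 15 libraries were merged wherever peaks overlapped by at least 1 bp, which gave 111393 regions. Of these, 7420 (6.66%) had a peak in all 8 libraries taken 72 h after activation and in none of the 7 libraries at 0 h. They are called opened regions below, a name for a pattern of peak calls: a region without a called peak can still hold signal under the caller's threshold. The rule used the peak calls of all 15 libraries: the members were chosen by these calls, and the contrast between 0 h and 72 h is a description and was not tested again.

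ATAC-seq uses the Tn5 transposase to put sequencing adapters into accessible DNA, and a peak is a stretch where more sequenced fragments pile up than in the surrounding background. The CD4+ T cells had working Irf5 alleles (IRF5+/+, called wild type or WT) or none (IRF5-/-, called knockout or KO), and were untreated (0 h) or activated in vitro for 72 h. At 0 h there were 4 libraries of the wild type and 3 of the knockout, and at 72 h 4 of either. The stimulus, the strain, age and sex of the mice and the type of Irf5 allele are not given in the sources used here. Whether replicate libraries stem from different mice or cultures is not stated either, so a p-value here speaks only of library-to-library spread, possibly technical.

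Activation of a CD4+ T cell through its antigen receptor and co-receptors turns on NFAT, NF-kB and AP-1, transcription factors that bind promoters and distant enhancers and help to open their chromatin. Within days the cells divide, change their metabolism and begin to make cytokines, which are the hallmark of the helper cell types Th1, Th2 and Th17. Most sites that open in such cells are known to lie away from promoters. Irf5, the gene missing in the knockout, encodes an interferon regulatory factor best known for its role downstream of Toll-like receptors.

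Few opened regions lay on promoters. Promoter sequence could be read from a reference table, which was not so for distal regions, and 4 promoters are shown here as examples. In the RefSeq promoter table for GRCm38.p6, the assembly behind mm10, 453 opened regions (6.11%) overlapped the window from 250 bases before to 50 bases after a gene's start. They covered 534 windows of 486 genes, among 32851 windows of 27025 genes in all, whether or not a region overlapped them. The 250 bases before the start are given for 4 of these genes, 5′ to 3′ on the minus strand, on which all 4 are transcribed. Il4 encodes the defining Th2 cytokine, Klrk1 the activating receptor NKG2D, Lmo1 a LIM-only transcriptional cofactor and Ctnna2 a catenin of neurons whose opened region was higher in the knockout. Capitals mark a RUNX motif (TGTGGT) in Klrk1, and an AP-1 motif (TGANTCA) followed by an NF-kB motif (GGGA and CC with any 4 bases between) in Lmo1. The Il4 and Ctnna2 stretches held no match to a motif whose matches were marked. The stretch of another Lmo1 start, chr7:109175150-109175399, under the same opened region as the one shown, held none either. Stretches of Tnr, Slc44a3, Ank2, Fez1, C2cd4b and Adgrv1, genes with many or a high share of opened regions, were also read and are not shown. None of them held an AP-1 or NF-kB match. The windows are chr11:53617339-53617588 for Il4, chr6:129623865-129624114 for Klrk1, chr7:109175208-109175457 for Lmo1 and chr6:77979668-77979917 for Ctnna2.
Il4: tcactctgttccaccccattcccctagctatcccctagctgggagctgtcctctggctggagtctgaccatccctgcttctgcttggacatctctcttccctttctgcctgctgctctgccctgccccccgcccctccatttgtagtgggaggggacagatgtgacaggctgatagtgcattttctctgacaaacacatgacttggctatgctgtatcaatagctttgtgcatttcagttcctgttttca
Klrk1: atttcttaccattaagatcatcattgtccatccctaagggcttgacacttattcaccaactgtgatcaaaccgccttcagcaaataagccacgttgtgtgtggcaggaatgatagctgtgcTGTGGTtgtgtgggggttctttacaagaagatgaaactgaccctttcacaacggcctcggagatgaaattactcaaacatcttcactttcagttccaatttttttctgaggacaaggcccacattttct
Lmo1: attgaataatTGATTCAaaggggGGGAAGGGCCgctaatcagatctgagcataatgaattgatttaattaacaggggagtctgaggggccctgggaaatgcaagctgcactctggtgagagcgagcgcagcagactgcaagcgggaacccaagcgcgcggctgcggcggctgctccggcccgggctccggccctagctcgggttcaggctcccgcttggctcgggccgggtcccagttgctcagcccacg
Ctnna2: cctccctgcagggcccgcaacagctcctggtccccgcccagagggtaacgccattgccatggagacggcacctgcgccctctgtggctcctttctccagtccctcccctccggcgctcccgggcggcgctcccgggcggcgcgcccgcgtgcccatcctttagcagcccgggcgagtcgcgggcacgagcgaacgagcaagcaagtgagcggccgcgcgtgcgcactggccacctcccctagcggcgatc

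Motifs were counted by exact letters on both strands of the whole promoter window, and matches to different motifs may overlap. The ETS motif (CCGGAAG), common in promoters of genes that most cells use, was in 1.87% of the 534 windows overlapped by opened regions and in 19.9% of the 11738 windows overlapped by regions called in all 15 libraries. It was in 8.86% of all 32851 RefSeq promoter windows, with or without a region over them. The AP-1 motif was in 7.12%, 4.20% and 7.81% of the same 3 sets, in that order. The NF-kB motif was in 30.1%, 27.1% and 20.7%, the NFAT motif (TGGAAA) in 18.2%, 15.4% and 21.4%, and the RUNX motif in 12.5%, 11.9% and 16.8%. An element of the kind bound by interferon regulatory factors (GAAA repeated after any 2 bases) was in 2.62%, 2.87% and 3.44%. Apart from ETS, the share in promoters of opened regions stayed within a few percentage points of the share in constitutive promoters. These shares describe letters in a short window and were not tested.

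Opened regions also covered 7 of the 1005 miRNA hairpins in the RefSeq table. A single opened region, chr1:195036729-195038184, held both Mir29b-2 and Mir29c, 787 bp from Cd46. The 3p strands of miR-29, a family known to restrain interferon-gamma and T-bet in T cells, share the seed AGCACCA (bases 2 to 8, in capitals). Another opened region, inside Focad on chromosome 4, held Mir491 and was among the taller ones.
mmu-miR-29b-3p: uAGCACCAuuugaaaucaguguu
mmu-miR-29c-3p: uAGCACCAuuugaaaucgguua
mmu-miR-491-5p: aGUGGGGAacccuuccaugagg

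At the miR-29 region the highest pileup per M fragments was 1.91, 1.52, 1.88 and 1.63 in wild-type libraries 1 to 4 at 72 h, and 1.74, 2.42, 2.05 and 2.15 in the knockout. Pileup is the number of fragments that cover a peak's summit, here divided by the fragments left after duplicate removal, in M (mega). The genotypes overlapped (log2 difference 0.26, SE 0.16, adjusted p = 0.302 in limma). At the Mir491 region the values were 5.39, 4.90, 5.82 and 4.74 in the wild type and 3.83, 4.12, 4.78 and 4.49 in the knockout, again overlapping (adjusted p = 0.266, limma).

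The libraries held 20.5 M to 29.0 M fragments after filtering, with 29994 to 47790 peaks at 0 h and 55519 to 69086 at 72 h. Knockout libraries at 72 h were shallower (21.4 M to 24.8 M fragments, against 24.7 M to 27.6 M) and had 55519 to 61478 peaks against 59243 to 69086. T cell loci carried peaks in every library: Cd3e had 4 to 9 of its 13 regions called and Cd4 1 to 3 of 6. Loci of other cell types were not free of peaks: 1 to 6 of the 7 regions at the B cell gene Pax5 were called in a library, 0 to 4 of the 7 at Cd8a, and 19 to 46 of the 78 in the myeloid list. Wild-type library 4 came at both times from an alignment numbered 5, per the file headers.

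Opened regions were narrower and lower than regions called in all 15 libraries. By merged width they were wider than regions in general, but their single peaks were about as wide as the peaks of a whole list. Their median merged width was 715 bp (quartiles 566 and 907, range 206 to 2832), and together they covered 5.69 Mb. The median was 500 bp over all merged regions and 1175 bp over regions called in all 15 libraries. Merged width grows with the number of lists that contribute, so the width of single peaks is the better guide. The median peak inside an opened region was 387 to 519 bp in the 8 libraries, against 701 to 887 bp inside regions called in all 15. Over all peaks of these libraries the medians were 377 to 507 bp. Knockout libraries 1 and 2 had narrower peaks in opened regions than over all (399 against 426 bp, and 433 against 437 bp). In 6500 opened regions (87.6%) each activated library had exactly 1 peak, and the summits of the 8 libraries lay within a median span of 103 bp.

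The median opened region reached 1.18, 1.23, 1.38 and 1.05 pileup per M in wild-type libraries 1 to 4, and 0.979, 0.969, 1.11 and 0.982 in knockout libraries 1 to 4. The lowest wild-type library, number 4, thus lay below the highest knockout library, number 3. In fragments, these medians were 27 to 36 in the wild type and 21 to 26 in the knockout. Regions called in all 15 libraries were taller, with medians of 2.29 to 2.90 in the wild type and 2.14 to 2.35 in the knockout. Within its own library's list, ranked by the authors' −log10 q, the median opened region stood at percentile 50.04 to 60.3, against 77.8 to 82.0 for regions called in all 15.

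**Figure D1:**
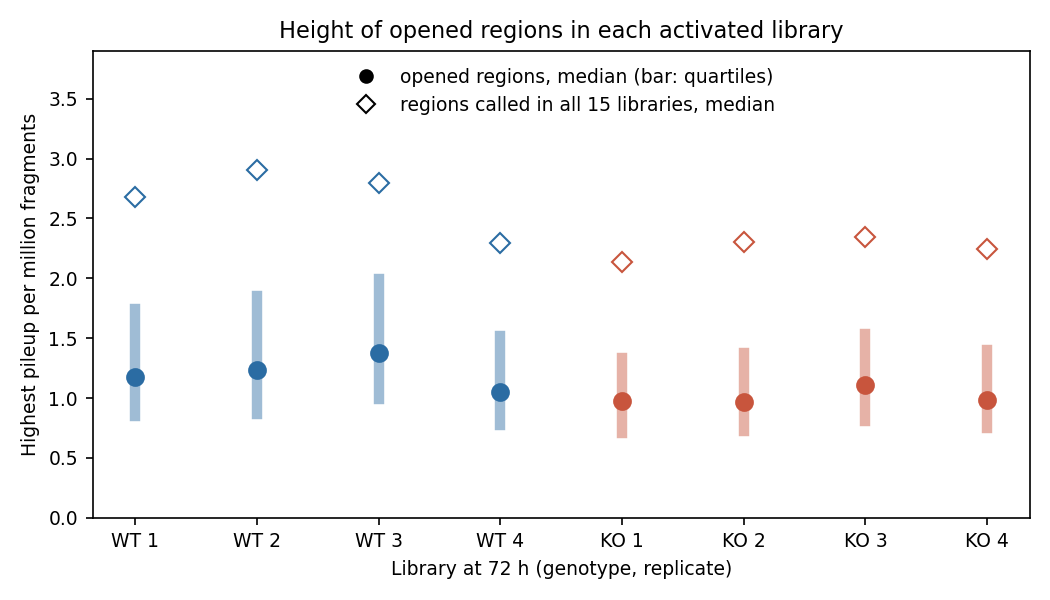
Highest pileup per M fragments (y axis) in each of the 8 libraries at 72 h (x axis; WT blue, KO red). Filled circles are medians over the 7420 opened regions, bars their quartiles, and open diamonds medians over the 21176 regions called in all 15 libraries; the diamonds lie above the circles in every library.

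The rule has a sharp edge in a gradual distribution. The 2903 regions with a peak in 7 of the 8 activated libraries and no resting one had a median pileup of 0.756 per M and a median −log10 q of 8.44, against 1.11 and 15.05 in the opened regions. The missing library was most often knockout 1 (653 regions), which has the fewest peaks at 72 h, and least often wild-type 3 (91), which has the most. The 1278 regions with a peak in all 8 activated libraries and 1 resting library had medians of 1.18 and 16.0. The single resting peak was most often in wild-type 2 (416), the deepest library at 0 h, and least often in knockout 3 (17), which has the fewest peaks of all.

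Signal below the per-library threshold was present at some opened regions before activation. The authors' lists from pooled resting replicates, which are deeper than any single library, had a peak over 557 opened regions in the wild type and 183 in the knockout. In all, 667 (8.99%) had a pooled resting peak in at least 1 genotype and 73 in both. Their heights after activation were close to those of the rest, with a median of 1.13 against 1.08 per M. In the authors' final lists for each condition 4 opened regions were present at 0 h in the wild type and 0 in the knockout. At 72 h the final lists held all 7420 in the wild type and 7419 in the knockout.

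Opened regions were mostly distal. Within 1 kb of a protein-coding gene boundary lay 749 (10.1%), against 15.4% of all merged regions, 45.4% of the regions called in all 15 libraries and 4.63% of the 1144 closed regions, which had a peak in all 7 resting libraries and in no activated one. A gene body was overlapped by 4154 opened regions (56.0%), and the other 3266 lay a median of 31483.5 bp from the nearest gene. No gene was found within 100 kb of 741 (9.99%), against 8.03% of all regions and 2.83% of those called in all 15. The regions that had a peak in all 8 activated libraries and in 1 to 6 resting ones lay between, with 14.99% within 1 kb of a boundary and 5.49% beyond 100 kb of a gene.

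**Figure D2:**
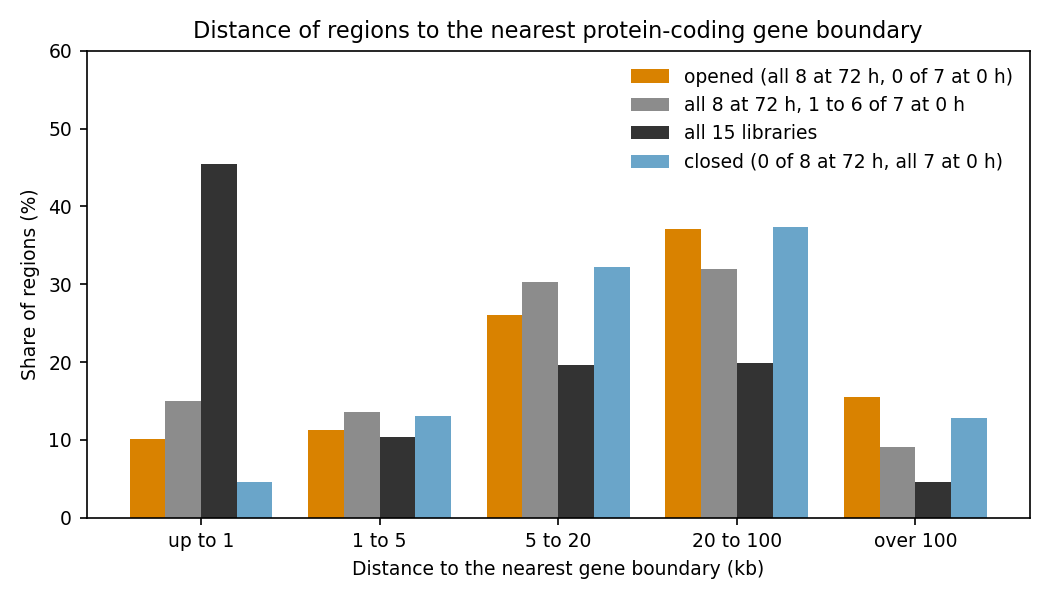
Share of regions (y axis, percent) by distance to the nearest protein-coding gene boundary in kb (x axis) for opened regions (orange), regions called in all 8 libraries at 72 h and 1 to 6 at 0 h (grey), in all 15 (black) and closed regions (blue). Opened and closed regions are mostly 5 to 100 kb away, while 45.4% of the regions called in all 15 lie within 1 kb.

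They also lay apart from constitutive sites. The nearest region called in all 15 libraries was a median of 35291 bp away, and 22.7% of opened regions had one within 10 kb, against 31.4% of all regions and 52.9% of closed regions. Another opened region lay within 10 kb of 14.6%. By chromosome, the share of regions that opened was highest on chromosome 3 (8.17%) and chromosome 13 (8.03%). No test was made on positions, since neighbouring regions are not independent replicates.

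The nearest gene within 100 kb was taken for 6679 opened regions, which fell to 4395 genes of the 17399 genes with any region. Most of these genes, 3017, had 1 opened region, and 97 had 5 or more. Genes with many were long: the median length was 278 kb for those with 5 or more, 56.9 kb for those with at least 1 and 22.6 kb for all genes with a region. The part of gene length in these counts was not tested, and the number of all regions of a gene is given beside its count.

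Ralgapa2, which encodes the catalytic subunit of a complex that switches off Ral GTPases, had the most, 11 of its 40 regions. Ank2, which encodes the membrane adaptor ankyrin-B, had 10 of 21, and none of its regions was called in all 15 libraries. Sox5, a transcription factor gene, had 10 of 71, and Zbtb20, which encodes a BTB zinc finger repressor, 9 of 72. With 8 each followed B3glct (of 20 regions), Kif16b (27), Tnr (33), Jazf1 (40), Mdfic (48), Dlg2 (57), Slc9a9 (60) and Lpp (82). Several of these genes are best known from the nervous system, among them Tnr (tenascin-R, a matrix protein) and Dlg2 (a synaptic scaffold). The calcium channel gene Cacna1c had 7 of 22, all within the gene, and no region called in all 15.

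Among genes with at least 5 regions, the opened share was highest at Hao1, which encodes a glycolate oxidase of liver, and at Lmo1, with 5 of 7 regions each. Fez1 followed with 4 of 6, and Aknad1 and C2cd4b with 3 of 5. None of these 5 genes had a region called in all 15 libraries. The densest window of 200 kb, chr7:109406257-109588531, held 9 opened regions of 29 over Stk33, Trim66 and Denn2b. The window over Ank2 and Camk2d, chr3:126813565-126998442, held 8 of 18. Another 8 lay over Birc6 and Ttc27 on chromosome 17, of 21 regions.

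Gene lists of T cell biology were set against the share over all regions with a gene within 100 kb, 6.52%. These lists were chosen with earlier results of these data known, and no list was tested. The share was highest in the Th2 list (11 of 110 regions, 10%, at 7 of 15 genes) and the Th17 list (17 of 178, 9.55%, at 10 of 13 genes). It was lowest in glycolysis (4 of 156) and myeloid markers (2 of 78), both 2.56%, and, among the T cell lists, in T cell identity (14 of 366, 3.83%). The regulatory T cell list had 17 of 212, and the T cell receptor activation list 14 of 265. The naive and quiescence list had 31 of 584 opened and also 20 closed regions (3.42%), against 1144 closed of all 111393. Closed shares were alike in the follicular helper and inhibitory receptor list (6 of 164, 3.66%) and in T cell identity (12 of 366, 3.28%).

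**Figure D3:**
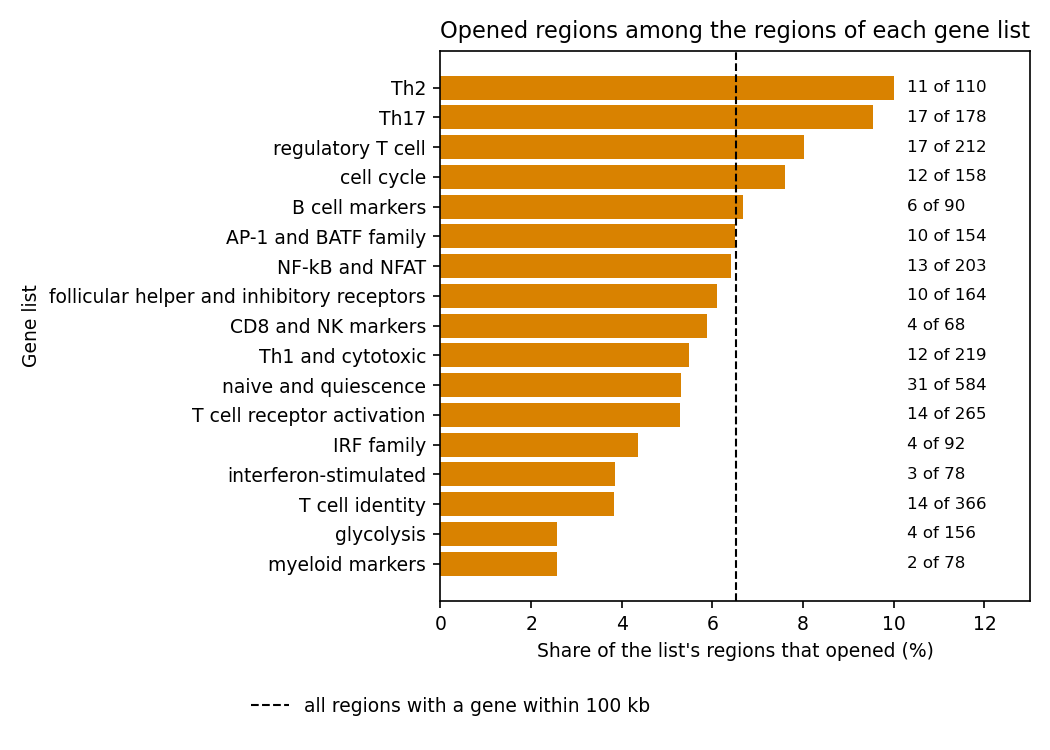
Share of each list's regions that opened (x axis, percent) for 17 gene lists (y axis), with the number of opened regions and of all regions printed at the right; the dashed line is the share over all regions with a gene within 100 kb, 6.52%. Th2 and Th17 lie farthest above the line, glycolysis and myeloid markers farthest below.

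Opened regions stood at the loci of 7 of the 15 Th2 genes. Il13 (0 of 3), Il5 (0 of 5), Il10 (0 of 14) and Stat6 (0 of 4) were among those with none. Maf, a transcription factor gene that promotes Il4, had 3 of 11 regions, Il1rl1, which encodes the IL-33 receptor ST2, 2 of 9, Gata3, the Th2 master regulator gene, 2 of 22, and Il24 1 of 2. The region over the Il4 promoter (chr11:53617195-53618160), named after its values were seen, reached 0.892, 1.71, 0.881 and 1.01 per M in the wild type and 1.02, 0.606, 0.811 and 0.515 in the knockout. Wild-type library 2 was high and the groups overlapped (adjusted p = 0.105, limma). A pooled resting peak lay over it. Nearby, 2 further opened regions lay inside Rad50, whose 3′ part is known to hold the locus control region of the Th2 cytokines, and 1 inside Kif3a. The Rad50 regions were taller, with means of 2.29 ± 0.27 and 3.07 ± 0.40 per M in the wild type (SD, n = 4) and 1.52 ± 0.26 and 2.21 ± 0.45 in the knockout. The first of them was called lower in the knockout (log2 −0.61, adjusted p = 0.0440, limma) and the second was not (adjusted p = 0.0948, limma).

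In the Th17 list, Il17f, a Th17 cytokine gene, had 2 of its 3 regions opened, Ccl20 2 of 7 and its receptor gene Ccr6 2 of 10. Rora, a Th17 transcription factor gene, had 4 of 47. Il17a (0 of 3), Il22 (0 of 1) and Stat3 (0 of 10) had none. At the Il17f region 6137 bp from the gene the values were 1.34, 1.02, 1.49 and 1.05 in the wild type and 0.801, 0.928, 1.54 and 1.08 in the knockout, so the groups overlapped. In the Th1 list, Il12rb2, which encodes a chain of the IL-12 receptor, had 4 of 23 and Ifng 2 of 31. Tbx21 (0 of 8) and Eomes (0 of 19) had none. In the regulatory T cell list, Foxp3 had 0 of 4, and Nrp1, which encodes neuropilin-1, had 7 of 49, more than any other gene of the lists. Its region 6738 bp from the gene reached 1.09, 1.27, 1.46 and 1.28 in the wild type and 0.801, 0.484, 0.683 and 0.421 in the knockout, without overlap (log2 −1.13, adjusted p = 0.00755, limma). It had the largest difference of the 7: 1 other was called lower, and the remaining 5 were not called, with log2 differences between −0.52 and 0.04.

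Among genes switched on by T cell receptor signals, Icos had 3 of 34, Il2 2 of 7, Egr2 2 of 15 and Cd44 2 of 25. Myc (0 of 14) and Nr4a1 (0 of 9) were among those with none. Of the AP-1 genes, Jun had 5 of 18, all outside the gene, and Batf3 2 of 10, while Fos (0 of 13), Batf (0 of 11) and Junb (0 of 4) had none. Nfkb1, which encodes the p105 and p50 subunit of NF-kB, had 5 of 43, and Nfkbiz 3 of 21. Rel (0 of 8) and Rela (0 of 3) had none. The Il2 region 2158 bp from the gene reached 1.87, 1.56, 1.91 and 1.44 in the wild type and 1.65, 2.02, 1.62 and 1.03 in the knockout, and overlapped a pooled resting peak. The Il2ra region, inside the gene of the high-affinity IL-2 receptor chain, reached 1.26, 1.45, 1.26 and 1.79 in the wild type and 1.11, 0.686, 0.726 and 0.748 in the knockout. All 4 knockout libraries lay below all wild-type ones at Il2ra (log2 −0.83, adjusted p = 0.0186, limma).

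Genes of the naive program, which activated cells are known to lower, and of T cell identity also held opened regions. Their shares, 5.31% and 3.83%, were below the 6.52% over all regions with a gene within 100 kb. Satb1 (0 of 50), Tcf7 (0 of 16), Bcl11b (0 of 44) and Ets1 (0 of 56) had none. Lef1, a transcription factor gene of naive T cells, had 3 of 49, all within the gene. A Lef1 region reached 5.23, 5.81, 6.20 and 4.78 per M in the wild type and 4.09, 3.11, 3.88 and 4.12 in the knockout. Every knockout library was lower there, but the adjusted p was 0.0583 (limma). Foxp1 had 3 of 110, all inside the gene. A Foxp1 region reached 4.46, 4.97, 5.32 and 4.43 in the wild type against 4.27, 2.75, 4.14 and 3.09 in the knockout (adjusted p = 0.116, limma).

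Opened regions also occurred near genes that mark other cells. Bank1, which encodes a B cell scaffold protein, had 5 of 31 regions, and Ebf1, a B cell transcription factor gene, 1 of 14. Together they are 6 of the 90 regions of the B cell list (6.67%), a share near the 6.52% over all regions with a gene in reach. Of those 90 regions, 19 to 21 were called in wild-type and 9 to 19 in knockout libraries at 0 h, and 48 to 54 and 32 to 42 at 72 h. In the CD8 and NK list (4 of 68, 5.88%), Klrk1 had 2 of 5 and Xcl1 2 of 21. In the myeloid list (2 of 78, 2.56%), Clec7a had its 1 region opened and Cebpa 1 of 3. The region over the Klrk1 promoter reached 6.40, 5.66, 6.62 and 4.43 per M in the wild type and 3.78, 5.09, 5.12 and 5.01 in the knockout. The part of other cell types in these regions was not tested.

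The tallest opened regions by mean log2 pileup lay nearest to Map3k7cl, Rgs21, Lrrc7, Wdfy1, Upp2, Foxn3, Slc9a9, Bank1, Cdrt4 and Gad2. They reached 4.49 to 9.05 per M over the 8 libraries. The region 46682 bp from Map3k7cl led, with 7.54, 8.89, 8.27 and 6.53 in the wild type and 6.27, 6.42, 9.05 and 7.95 in the knockout. Of the 10 regions, 4 lay in a gene, 1 within 1 kb of a boundary and 3 over a pooled resting peak. Their nearest genes have different known roles: Rgs21 is a regulator of G protein signalling, Upp2 a uridine phosphorylase, Foxn3 a forkhead factor and Gad2 an enzyme that makes the transmitter GABA. The mean log2 pileup was lower in the knockout at 9 of the 10, against 80.0% of all opened regions and 86.9% of all tested regions. The groups overlapped at all 10 and none was called (adjusted p between 0.245 and 0.976, limma).

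The genotype comparison asked whether regions open in every activated library reached the same height without Irf5. It was made with limma on log2 pileup per M over all 37364 regions called in all 8 activated libraries, with the opened regions as a subset. Peak presence at 72 h does not differ among these regions, and the height was not part of the rule beyond the caller's threshold.

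Opened regions were lower in the knockout by a median of 0.24 on the log2 scale (0.845-fold), and so were the others: the median log2 difference was −0.22 over all tested regions and −0.22 over those called in all 15 libraries. The test called 715 opened regions lower (9.64%) and 6 higher (0.0809%) at an adjusted p under 0.05, against a background of 4.59% lower and 0.0321% higher over all tested regions. Among regions called in all 15, 547 of 21176 (2.58%) were called lower. All 4 knockout libraries lay below all 4 wild-type ones at 1050 opened regions (14.2%, background 13%) and above them at 37 (0.499%, background 0.195%). By an exact permutation test, such a region has the smallest two-sided p possible with 4 against 4, 0.0286.

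The number of calls changed with the scaling and with single libraries. When each library was centred on the median of the regions called in all 15, the median difference of the opened regions was −0.01 and of all regions 0.01, a shift of the whole scale by 0.24. After centring 1 opened region was called lower (background 0.00268%) and 0 higher (background 0.00268%), and at an unadjusted p under 0.05 there were 840 lower and 623 higher (19.7% of opened regions, 12% of all). Without centring, leaving out wild-type library 2 left 5 lower calls and leaving out wild-type library 4 gave 1475. Without knockout library 2 there were 168, without knockout 4 259 and without wild-type 3 226. The part of depth and peak number, which were lower in the knockout, in the common shift was not tested.

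**Figure D4:**
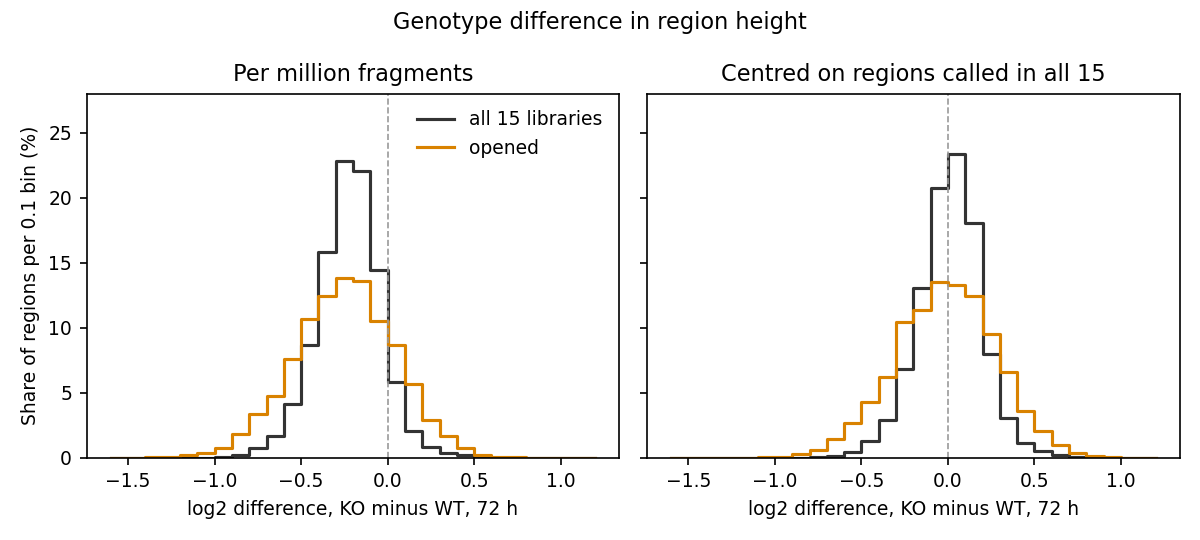
Share of regions (y axis, percent per bin of 0.1) by log2 difference in highest pileup at 72 h, KO minus WT (x axis), for opened regions (orange) and regions called in all 15 libraries (black); left per M fragments, right after centring. Both sets centre near −0.22 to −0.24 at the left and near 0 at the right, and the opened regions spread more widely.

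The spread was wider in opened regions on both scales. Their 5th to 95th percentile ran from −0.74 to 0.22 per M fragments, against −0.53 to 0.07 in regions called in all 15. Libraries of a genotype also differed more from each other there, with a median SD on the log2 scale of 0.27 in the wild type and 0.26 in the knockout, against 0.22 and 0.18. Per M fragments, the median difference was −0.13 in the lowest of 4 equal groups of 1855 opened regions by mean log2 pileup. It was then −0.23, −0.27 and −0.32 in the highest. After centring the medians were 0.11, 0.01, −0.04 and −0.08 in the same order. Regions with a knockout value under the caller's threshold were not in the set, and the part of this in the trend was not tested. Of the opened regions called lower, 3.92% lay within 1 kb of a gene boundary, against 10.8% of the other opened regions.

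The region with the lowest p, and the 1 opened region called after centring, lay 10082 bp from Snd1, which encodes a staphylococcal nuclease domain protein of RNA-regulating complexes (chr6:28469623-28470255). It reached 2.92, 2.90, 4.02 and 2.53 per M in the wild type and 1.07, 0.928, 0.982 and 1.08 in the knockout. The groups were far apart, with means of 3.09 ± 0.64 and 1.01 ± 0.07 (SD, n = 4), a log2 difference of −1.59 (SE 0.17) and an adjusted p of 0.000107 in limma. Centred, the difference was −1.35 (adjusted p = 0.00765, limma). With the authors' fold enrichment in place of pileup it was −0.74 and no longer called (adjusted p = 0.0693, limma). This region lies 1055875 bp from Irf5 itself, which is on the same chromosome (chr6:29526130-29541869).

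Other opened regions around Irf5 were then listed, a choice made after the Snd1 region was seen. Within 2 Mb of Irf5 lay 16, of which 6 were called lower and 0 higher, with a median difference of −0.50, against 9.64% called lower among all opened regions and 4.59% among all tested. The count includes the region that prompted the list, and 5 of the other 15 were called. Those 5 were 3 inside Snd1, 1 near Fscn3 and 1 inside Mkln1. The Snd1 region chr6:28593364-28594169 had 2.50 ± 0.08 in the wild type and 1.36 ± 0.22 in the knockout (SD, n = 4). Tnpo3, the gene next to Irf5, held 1 opened region inside it, with 1.33 ± 0.33 and 1.09 ± 0.22 (adjusted p = 0.353, limma). Extending the distance to 10 Mb gave 55 opened regions, 8 called lower, and a median of −0.22, that of all tested regions.

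The other opened regions with the lowest p among those called lower were near Setbp1, Gnaq, Pdpn, Brip1, Adamtsl4, Rhag and Slx4ip. Gnaq encodes the alpha subunit of the Gq protein, Pdpn the glycoprotein podoplanin and Brip1 a helicase of DNA repair. Inside Gnaq the values were 3.12, 3.34, 2.60 and 2.26 in the wild type and 1.38, 1.21, 1.24 and 1.22 in the knockout (log2 −1.15, SE 0.17, adjusted p = 0.00365, limma). Inside Brip1 they were 1.46, 2.14, 1.57 and 1.44 against 0.890, 0.686, 0.726 and 0.702. At all 7 the groups did not overlap, and none passed after centring, where the adjusted p ran from 0.0529 at Setbp1 to 0.167 at Slx4ip (limma).

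The 6 opened regions called higher were near Phex, Ctnna2, Sgcz, Thbs1, Stk24 and Samsn1. At the Ctnna2 promoter, whose sequence is given above, the values were 0.851, 0.762, 0.727 and 0.622 in the wild type and 1.02, 1.21, 1.28 and 1.40 in the knockout. Every knockout library was higher there (log2 0.73, SE 0.17, adjusted p = 0.0207, limma). Inside Phex, which encodes a peptidase of phosphate balance, they were 0.568, 0.508, 0.498 and 0.583 against 0.801, 0.928, 0.811 and 0.982. These are low regions, with 13 to 15 fragments in the wild-type libraries at Phex. At Thbs1, Stk24 and Samsn1 the groups overlapped. None of the 6 passed after centring, although the centred differences were larger, 0.84 to 1.22.

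**Figure D5:**
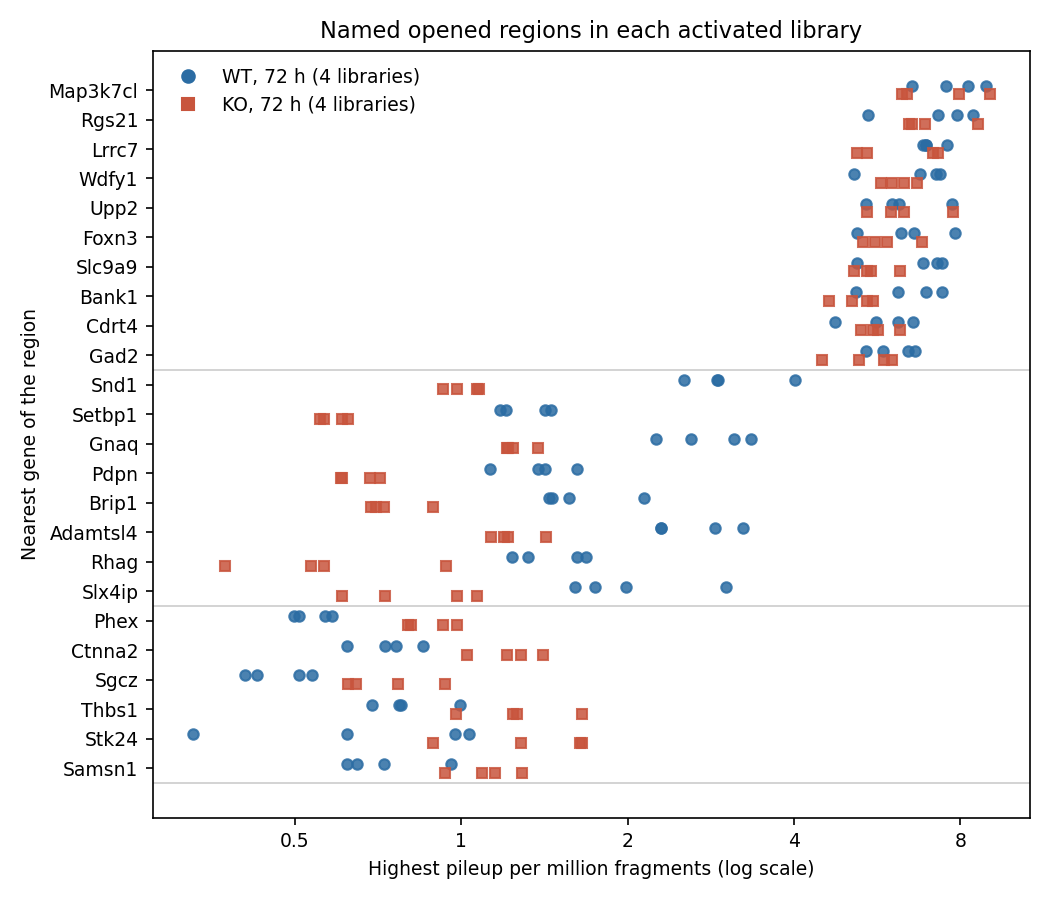
Highest pileup per M fragments (x axis, log scale) in each activated library at named opened regions, given by nearest gene (y axis); blue circles are the 4 WT and red squares the 4 KO libraries. From top to bottom stand the 10 tallest regions, where genotypes overlap, the 8 with the lowest p among those lower in the knockout and the 6 called higher.

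Genotype calls among the gene lists are set against the 9.64% called lower among all opened regions. Of the opened regions in each list, 4 of 11 were called lower in the Th2 list and 5 of 17 in the regulatory T cell list. The T cell identity list had 4 of 14 and the Th17 list 3 of 17. Shares were also high outside these lists, with 2 of 6 among B cell markers and 1 of 3 in the interferon-stimulated list. The follicular helper and inhibitory receptor list had 3 of 10, the AP-1 and BATF list 2 of 10 and the T cell receptor activation list 2 of 14. The count was 2 of 31 in the naive and quiescence list, 1 of 12 in the Th1 list and 1 of 13 in the NF-kB and NFAT list. In the 17 lists 0 were called higher. No list was tested. No opened region of these lists was called after centring. The median difference was −0.44 in the Th2 list and −0.21 in the cell cycle list, where 0 of 12 were called. Only the interferon-stimulated list, with 3 opened regions, had a median above 0 (0.04), while after centring 4 of the lists did. Of the IRF family, Irf1, Irf2 and Irf4 held opened regions, 4 in all, and 0 were called.

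Across the opened regions, the order of heights was shared between genotypes. Over the 7420 regions the mean log2 pileup of the wild type and of the knockout correlated with Pearson r = 0.909 and Spearman rho = 0.886, and single libraries with r between 0.682 and 0.895. These correlations are across regions of the same libraries and describe them only.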

How the data were processed

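Chromatin accessibility was measured by ATAC-seq, and the submitters' processing notes name Trim Galore 0.5.0, Bowtie2 2.2.9, HOMER 4.10.4 and the build mm10. Per the file headers, the authors called peaks with MACS2 2.1.1.20160309 in paired-end mode with no control sample, at most 1 fragment per position and a q cutoff of 0.05. The deposited pileup signal is fragment coverage at a summit, the deposited fold enrichment is the ratio of pileup to local background, and the deposited −log10 p and q values come from the same model. Pooled and final lists are the authors', and the sources used here do not say how the final ones were chosen.

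Lists of single libraries were merged at an overlap of 1 bp. The highest pileup of a region was divided by the fragments after filtering, in M (mega; 20.5 M to 29.0 M per library, which limits weak peaks), and log2 values were tested with limma 3.58.1 (R 4.3.3) on the 8 libraries at 72 h, with Benjamini-Hochberg adjustment over 37364 regions. The test was also run on simulated data with independent noise and no shift between libraries. That run does not bear on the common shift or on the dependence on single libraries. Genes and sequences came from RefSeq tables of GRCm38.p6; mm10 itself was not used, so sequences of distal regions are not shown. Distances are to gene boundaries.

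The members and gene lists were chosen with earlier results of these data known. Named were the 20 genes with most opened regions and 5 with the highest share, the 10 tallest regions, up to 8 called regions per direction with the lowest p, the 3 widest, up to 4 genes per list and 5 windows; further names are marked as chosen later. The 3 widest regions lay near St3gal1 (2832 bp), Tmtc1 (2381 bp) and Ncam1 (2359 bp). Same-numbered libraries of the genotypes did not deviate together. Alternatives changed the peak threshold, merging, coverage, scaling, pseudocount, filter and libraries.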

Additional observations from a re-analysis of the deposited data

Results flagged for a closer look

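Among 58 groups of 4 libraries that were examined, 4 had a library apart from the other 3 by Dixon's criterion, which flags about 1 group in 20 by chance. Knockout library 3 at 72 h had the highest median over the opened regions, 1.11 pileup per M, against 0.969 to 0.982 in the other knockout libraries. Knockout library 1 at 72 h had 55519 peaks, the fewest of its group, and the other 3 had 60859 to 61478. At the region inside Lrrc7, wild-type library 3 reached 7.58 per M, and the other wild-type libraries 6.85 to 6.93. At the region inside Gnaq, knockout library 1 reached 1.38, and the other knockout libraries 1.21 to 1.24, all below the wild type.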

How the results depend on the processing

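The count of opened regions was 7420 and stayed between 6307 and 8079 under a −log10 q of at least 5, gaps of 100 bp joined, autosomes only, no pooled resting peak and leaving out each library (7437 to 8079). It was 3401 with the 29994 strongest peaks of every library, of which 1992 were among the 7420, and 3593 when peaks had to cover 0.5 of a region. With 20 kb in place of 100 kb, 73.3% had a gene in reach, and 21.3% lay within 5 kb of a boundary. Opened regions called lower and higher in the knockout were 715 and 6. They were 1 and 0 after centring (median −0.0069), 2 and 0 after quantile normalization (median −0.0098), 2 and 0 with fold enrichment in place of pileup, 1102 and 11 with a pseudocount of 0.5, and 1047 and 11 with limma's trend and robust options. With the replicate number as a block they were 691 and 10; same-numbered libraries had deviations correlated by −0.13, −0.13, 0.09 and −0.04, so the numbers were not taken to pair them. Leaving out each library gave 5 to 1475 lower and 0 to 15 higher. The cause of these changes was not tested. Of the 8 regions named as lower, 1 kept its call after centring, 2 after quantile normalization, 2 with fold enrichment (the one near Snd1 lost it, at an adjusted p of 0.0693 in limma) and 5 without wild-type library 2, and all that could be fitted did in the other alternatives. The 6 named as higher lost their calls in all 3 of those scalings and without knockout library 2, knockout library 4 or wild-type library 2. None of these 14 regions changed direction in an alternative. Depth limits the calling of weak peaks, so the lack of a peak at 0 h does not measure closed chromatin.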
